A study of Mus musculus with 2 samples.

Results

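The cells described here are the vascular endothelial cells of embryonic mouse hearts, chosen as the cells that the authors' deposited cell type column calls vas_ec. That column was read here only up to a row that breaks off, which left names for 4546 of the 13246 cells of the series. Of the named cells 421 were vascular endothelial, or 9.26% (95% exact binomial interval 8.43 to 10.1). Vascular endothelial cells among the other cells of the series were not analysed here, except through clusters. The choice used only the authors' name. Each integrated cluster held a single cell type, so that name is not independent of the clusters, scores and calls compared below.

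Vascular endothelial cells line the arteries, capillaries and veins of the heart wall. They form a coronary network that grows through the muscle before birth by sprouting and cell division, with mural cells wrapped around the vessels and fibroblasts in the tissue between them. Endocardial cells are the other endothelium of the heart: they line its chambers and valves, and part of the coronary vessels arises from them.

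The study measured single cells of control hearts and of hearts in which fibroblasts were genetically ablated, at the embryonic stages E16.5 and E18.5, named for days of gestation. Control samples had the genotype Rosa-DTA+/-, and ablated samples had Pdgfra-CreER+/-;Rosa-DTA+/-. CreER, an inducible recombinase, is expressed from Pdgfra, a receptor gene used as a fibroblast marker, and switches on diphtheria toxin fragment A from Rosa-DTA, an allele that both groups carry. When the recombinase was induced is not given in the sources used here, nor whether a barcoded sample was 1 heart or several.

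Dissociated cells of each sample carried their own MULTI-seq barcode, a short DNA tag attached to the cell surface, and were then captured together in 2 pools. The tag alone says which group a cell belongs to. The 4 samples with named cells carried these tags, as the deposited key spells them, and any 2 of the tags differ at 4 to 6 of their 8 bases.
E16.5 control: ttagccag
E16.5 ablated: ggacccca
E18.5 control: ccaaccgg
E18.5 ablated: tgaccgat

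The 4546 names read belong to the first cells of pool 1 in the order of their cell barcodes, without a gap, and cover 62.7% of its 7251 cells. Names of its other cells and of all 5995 cells of pool 2 were not read, so these cells are called unnamed here, which says nothing about what they are. The 421 cells came from 1 barcoded sample per stage and condition: 224 control and 44 ablated cells at E16.5, and 58 control and 95 ablated cells at E18.5. With 1 sample a group there is no replicate check and no test. Intervals below measure counting error alone, without any spread from heart to heart, and stage or condition cannot be told apart from the single sample that stands for it. Gene values were not analysed here, so the name could not be checked against Pecam1, Cdh5, Kdr and Fabp4, the endothelial markers set for it. The 2 pools shared 19 cell barcode sequences, of which 2 belonged to vascular endothelial cells.

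Names and integrated clusters are not independent, since each of the 40 integrated clusters held a single cell type, and the 421 cells filled 2 of them, with 286 in cluster 2 and 135 in cluster 15. In the separate clustering made within pool 1, cluster 7 held 282 named cells and every one was vascular endothelial. Cluster 13 held 135 named cells, of which 134 were vascular endothelial. Neither cluster held a cell named endocardial. The types of their unnamed cells, 150 in cluster 7 and 81 in cluster 13, were not read. The remaining 5 vascular endothelial cells lay in cluster 5, beside 366 endocardial cells and 3 of other types. Both clusterings used genes of the same cells, so this overlap is a description. Of the cluster 15 cells, 133 were in cluster 13 of pool 1, and of the cluster 2 cells, 280 were in cluster 7.

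Within the heart's endothelium, the vascular share was lower in the E16.5 ablated sample than in its control. At E18.5 it was higher in the ablated sample, with an interval of the difference that held 0. Of vascular and endocardial cells together, 224 of 431 were vascular in the E16.5 control, or 52.0% (47.1 to 56.8), and 44 of 111 in the E16.5 ablated sample, or 39.6% (30.5 to 49.4). At E18.5 they were 58 of 103 in the control, or 56.3% (46.2 to 66.1), and 95 of 144 in the ablated sample, or 66.0% (57.6 to 73.7). The ablated sample thus lay lowest of the 4 at E16.5 and highest of the 4 at E18.5, with both controls between.

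Ablated minus control, the vascular share of endothelial cells differed by -12.3 percentage points at E16.5 (interval -22.7 to -1.47) and at E18.5 by 9.66 points (-3.18 to 22.4). The difference between these 2 differences was 22.0 points (5.18 to 38.4). Between stages the share was 4.34 points (-6.87 to 15.2) higher at E18.5 in the controls and 26.3 points (13.5 to 38.3) higher in the ablated samples. Without the 10% of named cells with the highest UMI counts the E16.5 difference was -9.58 points, and its interval then held 0 (-20.6 to 2.18). A ratio of 2 cell types cannot say which of them changed in number, and the recovery of each type by dissociation was not tested.

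Among cells that were neither fibroblasts nor cardiomyocytes, 31.3% were vascular endothelial in the E16.5 control and 22.8% in the E16.5 ablated sample, a difference of -8.49 points (-15.2 to -1.09). The E18.5 samples stood at 25.9% and 26.0%, 0.0634 points apart (-7.60 to 7.45). Over non-cardiomyocyte cells the E16.5 difference was -2.34 points, and its interval held 0 (-7.03 to 2.95). Over non-fibroblast cells it was -4.08 points (-6.61 to -1.25). Of all named cells, 9.20% were vascular endothelial in the E16.5 control and 6.62% in the E16.5 ablated sample, a difference of -2.58 points (-4.73 to -0.146). At E18.5 the difference over all named cells was 0.940 points (-2.45 to 4.19). The E16.5 interval held 0 without the 10% of named cells with the highest UMI counts (-2.08 points, -4.20 to 0.389). It also held 0 without the 10% with the highest mitochondrial percent (-2.66 points, -5.14 to 0.169). Clusters 7 and 13 together made up 8.69% of all 3914 cells of the E16.5 control and 6.26% of all 1070 cells of the E16.5 ablated sample, a difference of -2.43 points (-4.08 to -0.587). Among the unnamed cells of pool 1 the values were 7.98% and 5.68%, and there the interval of the difference held 0 (-4.84 to 0.729).

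**Figure D1:**
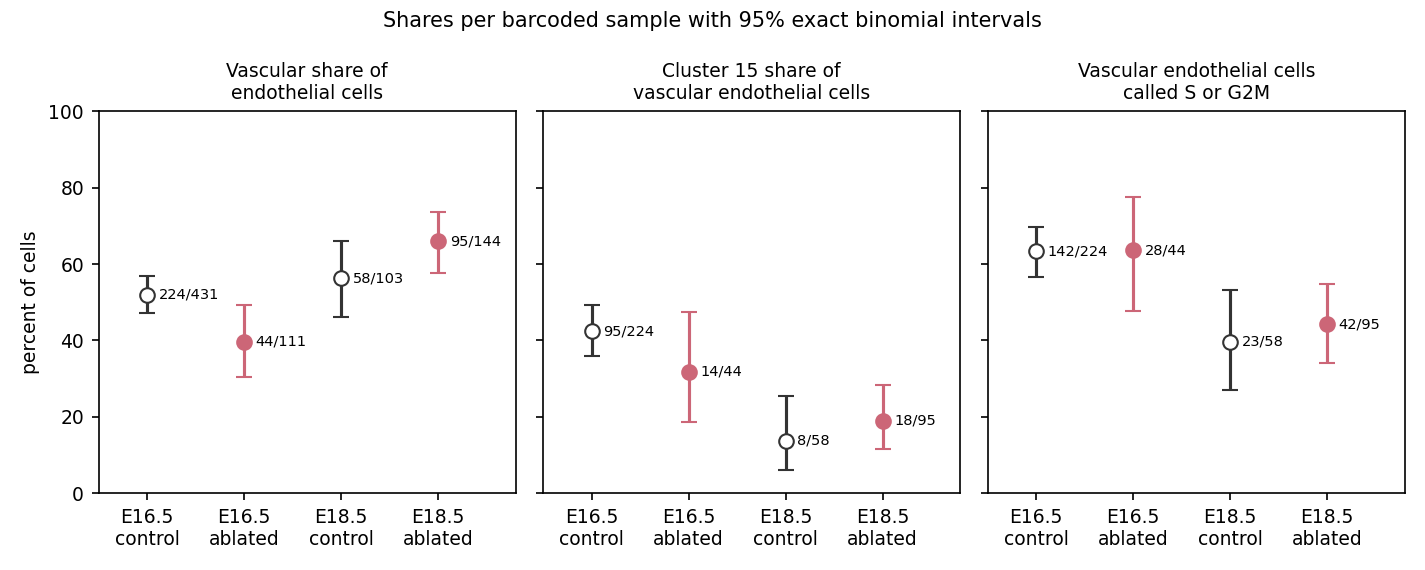
Percent of cells in each of the 4 barcoded samples, with open points for controls, filled points for ablated samples, bars for 95% exact binomial intervals and the cell counts beside each point. The vascular share of endothelial cells runs from 39.6% to 66.0%; the cluster 15 share and the share called S or G2M are both higher in the 2 samples of E16.5 than in the 2 of E18.5.

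The integrated clusters 2 and 15 of the vascular endothelial cells differed in their cell cycle scores. The S score and G2M score sum up, for each cell, genes active while DNA is copied and genes active before and during division. In 4546 of 4546 named cells the authors' call was G1 where neither score was above 0 and otherwise the phase of the higher score. Of the 135 cells of cluster 15, 101 were called G2M and 34 S. None was called G1, which allows a share of up to 2.22% at the limit of 3 cells. Of the 286 cells of cluster 2, 186 were called G1, 86 S and 14 G2M. Both scores were above 0 in 116 cells, of which 106 were in cluster 15. Clusters, scores and calls all came from genes of the same cells, so this split is a description and has no test.

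**Figure D2:**
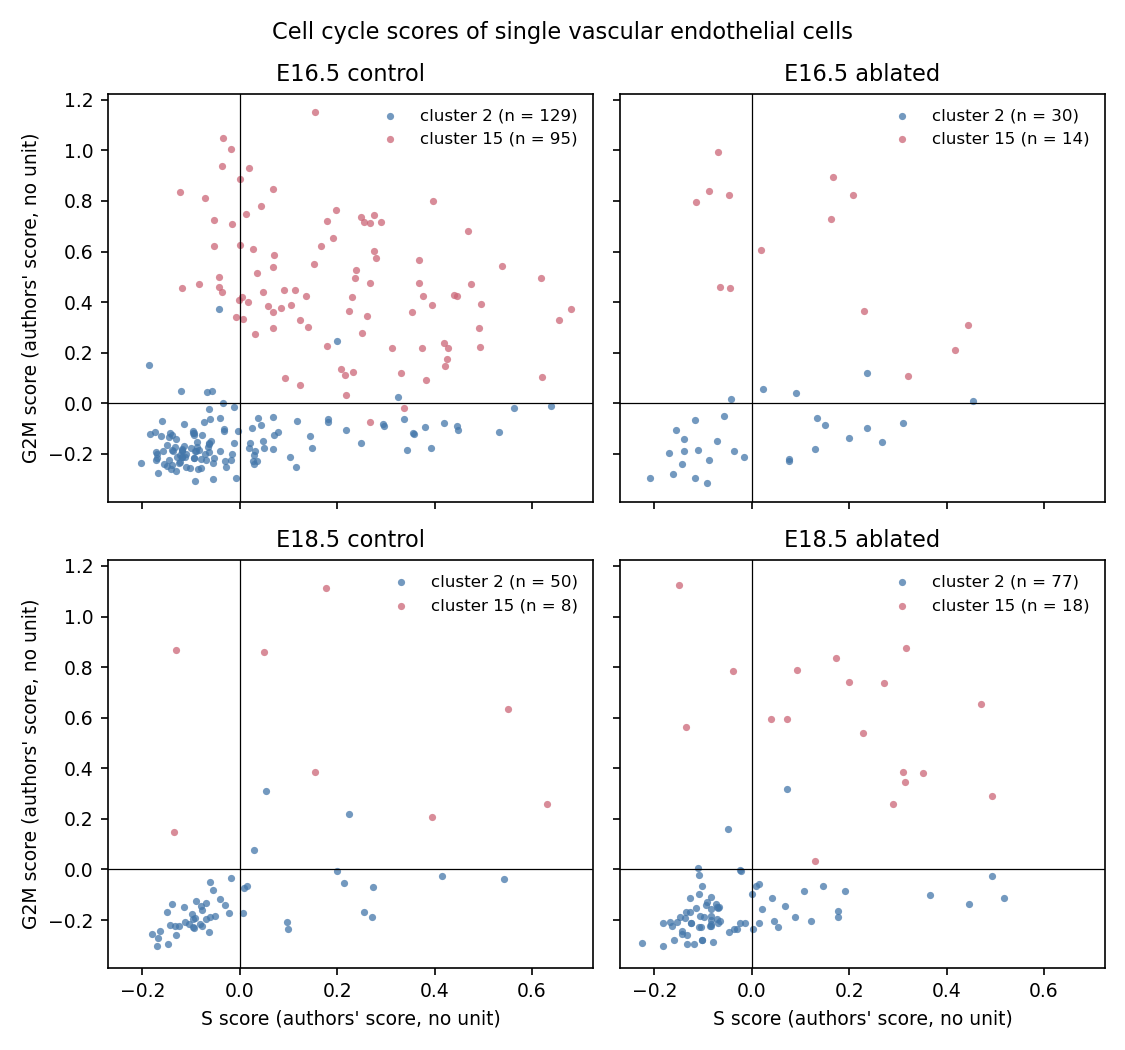
G2M score against S score, both the authors' scores without a unit, for each vascular endothelial cell in 4 panels, 1 per barcoded sample, with blue points for cluster 2 and red points for cluster 15. Lines mark 0; no cluster 15 cell lies below 0 on both axes, and cluster 15 holds 95 and 14 cells at E16.5 against 8 and 18 at E18.5.

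Cluster 15, the cluster of high scores, held a larger part of the vascular endothelium at E16.5 than at E18.5. It held 95 of 224 cells in the E16.5 control, or 42.4% (35.9 to 49.2), and 14 of 44 in the E16.5 ablated sample, or 31.8% (18.6 to 47.6). It held 8 of 58 cells in the E18.5 control, or 13.8% (6.15 to 25.4), and 18 of 95 in the E18.5 ablated sample, or 18.9% (11.6 to 28.3). Both E16.5 samples were above both E18.5 samples. The stage difference was -28.6 points (-38.8 to -15.3) in the controls and -12.9 points in the ablated samples, where the interval held 0 (-30.2 to 3.30).

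The pool 1 clusters gave the same direction with more cells. Cluster 13 made up 42.1% of the 340 cells of clusters 7 and 13 in the E16.5 control and 44.8% of 67 in the E16.5 ablated sample. In the E18.5 samples it made up 15 of 91 cells and 28 of 150 cells, the latter 18.7%. The stage difference was -25.6 points (-34.4 to -14.9) in the controls and -26.1 points (-40.1 to -12.0) in the ablated samples. The unnamed cells of pool 1, which took no part in the values of clusters 2 and 15, stood at 41.5% (118 cells) in the E16.5 control and at 65.2% (23 cells) in the E16.5 ablated sample. At E18.5 they stood at 21.2% (33 cells) and 17.5% (57 cells). Their stage differences were -20.3 points (-35.8 to -0.461) and -47.7 points (-68.1 to -22.0). These cells share their samples, library and clustering with the named ones, so they are further cells of the same 4 samples and not a replicate.

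No difference between ablated and control samples in this makeup of the vascular endothelium was detectable with these cell numbers. For cluster 15 the E16.5 value was -10.6 points (-25.4 to 6.48) and the E18.5 value 5.15 points (-8.55 to 17.2). Over all cells of clusters 7 and 13, the difference in the share of cluster 13 was 2.72 points (-10.6 to 16.4) and 2.18 points (-8.78 to 12.2). At E16.5 the sign of the value depended on whether unnamed cells were counted.

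Taken as a share of all named cells, the 2 clusters differed in opposite directions between the control samples. Cluster 15 was 3.90% of the named cells in the E16.5 control and 1.38% in the E18.5 control, a difference of -2.52 points (-3.67 to -1.01). Cluster 2 was 5.30% in the first and 8.64% in the second, 3.34 points more (0.974 to 6.07). In the ablated samples cluster 15 stood at 2.11% and 2.08%, and cluster 2 at 4.51% and 8.88%, the latter 4.37 points more (1.77 to 6.92). Ablated minus control, the cluster 15 share of named cells differed at E16.5 by -1.80 points (-3.07 to -0.214) and at E18.5 by 0.694 points (-0.873 to 2.12), values 2.49 points apart (0.263 to 4.40). All these shares depend on how many cells of other types each sample held.

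S and G2M were called in a smaller share of cells at E18.5. In the controls the difference lay mainly in G2M, and in the ablated samples it was divided between both calls. G2M was called in 76 of 224 cells of the E16.5 control, or 33.9%, and in 13 of 44 of the E16.5 ablated sample, or 29.5%. At E18.5 it was called in 8 of 58 control cells, or 13.8%, and in 18 of 95 ablated cells, or 18.9%. The stage difference was -20.1 points (-30.2 to -7.01) in the controls and -10.6 points (-27.9 to 5.23) in the ablated samples. S was called in 29.5% and 34.1% of cells at E16.5 and in 25.9% and 25.3% at E18.5. Its stage differences, -3.60 points (-16.0 to 10.8) and -8.83 points (-26.7 to 8.03), had intervals that held 0.

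For both calls together the stage difference was -23.7 points (-37.8 to -8.49) in the controls and -19.4 points (-36.7 to -0.370) in the ablated samples. Without the 10% of vascular endothelial cells with the highest UMI counts the ablated value was -15.4 points and its interval held 0 (-33.8 to 4.39). Within cluster 2 alone, S or G2M was called in 36.4% and 46.7% of cells at E16.5 and in 30.0% and 31.2% at E18.5, and the interval of every difference between stages or conditions held 0. When both samples of a contrast were given the same mix of the 2 clusters, the stage difference was -4.37 points in the controls and -10.5 points in the ablated samples. Since every cell of cluster 15 was called S or G2M, holding the mix fixed takes out part of the difference by construction. Ablated minus control, the share called S or G2M differed at E16.5 by 0.244 points (-16.8 to 15.7) and at E18.5 by 4.56 points (-12.5 to 21.0). These intervals still hold differences of over 15 points in either direction at E16.5.

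A phase is a call from scores and does not by itself show that a cell was dividing. In 58 cells, or 13.8%, the larger score lay within 0.05 of 0, where a small shift changes the call. RNA from outside the cells enters the scores as well, and its part was not tested.

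Depth differed with the calls and is given here beside them. In the E16.5 control the median UMI count, that is the number of distinct RNA molecules read per cell, was 8847 in cells called G1, 15484 in S and 19059.5 in G2M. In the E16.5 ablated sample the medians were 5275, 14953 and 13503, and in the E18.5 control 5910, 6623 and 8606. In the E18.5 ablated sample they were 6949, 7490.5 and 5650, so cells called G2M had 0.813 times the UMIs of those called G1, against 2.15, 2.56 and 1.46 times in the other samples. Cluster 15 cells had a median of 16771 UMIs and cluster 2 cells 8111, a ratio of 2.07, and the ratio within samples lay between 1.15 and 1.92.

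**Figure D3:**
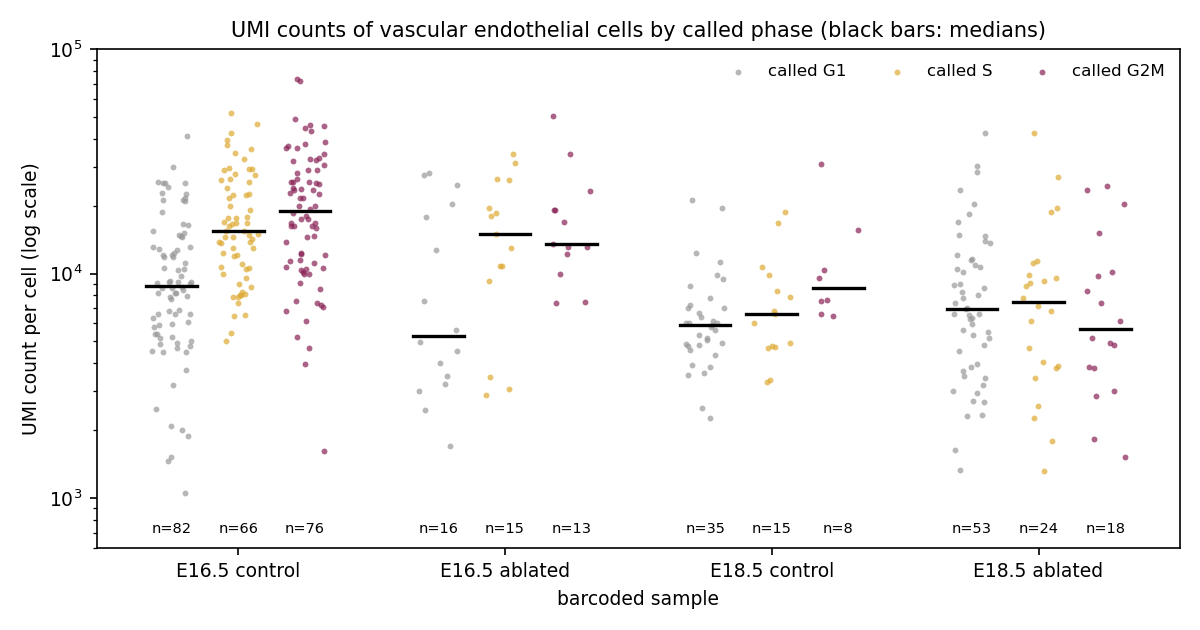
UMI count of each vascular endothelial cell on a log axis, by barcoded sample and called phase, with black bars at the medians and cell numbers below. Medians of cells called S and G2M lie above those of G1 in the 2 samples of E16.5 and in the E18.5 control; in the E18.5 ablated sample the G2M median of 5650 lies below the G1 median of 6949.

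The value of the stage difference in phase calls varied between depth ranges, with wide intervals that overlapped in the controls. Among cells below the median UMI count of all vascular endothelial cells, both intervals held 0. The stage difference there was -3.04 points (-20.7 to 15.5) in the controls and 6.58 points (-22.1 to 32.6) in the ablated samples. Among cells at or above that median it was -16.7 points in the controls, where the interval held 0 (-51.1 to 12.2). In the ablated samples it was -42.1 points (-63.9 to -13.6). Among cells between 5997 and 18810 UMIs, the middle of the range, it was -11.1 points (-31.6 to 9.40) in the controls and -44.7 points (-64.1 to -15.3) in the ablated samples, where only 18 cells of E16.5 remained. Thinning every cell to 1 number of UMIs needs gene counts, which were not used, so the part of depth in the phase result was not tested further.

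Vascular endothelial cells were the deepest or among the deepest cells at E16.5 and among the shallowest at E18.5. Their median UMI count was 13804.5 (quartiles 8227.25 and 23040.25) in the E16.5 control, the highest of 8 cell types, and 13042.5 (5430 and 19729.25) in the E16.5 ablated sample, behind 2 other types. It was 6284.5 (4805.75 and 8739) in the E18.5 control and 6949 (3854 and 11017) in the E18.5 ablated sample, in both cases above immune cells alone. Single cells ranged from 1049 to 73382 UMIs.

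The median was 2.20-fold lower at E18.5 than at E16.5 in the controls and 1.88-fold lower in the ablated samples. No other cell type was lower by a larger factor in these samples. Mural cells came next, 1.47-fold and 1.77-fold lower. The median of ventricular cardiomyocytes was 1.23-fold and 1.53-fold higher at E18.5. All 4 samples were tagged apart and then pooled before capture, and the cause of these stage differences was not tested. The number of detected genes followed, with medians of 4219.5 and 4202 in the E16.5 control and ablated samples and 2770 and 2821 in those of E18.5. Within cluster 2 the UMI median was 1.74-fold lower at E18.5 in the controls and 1.69-fold lower in the ablated samples. Within cluster 15 it was 2.02-fold and 1.81-fold lower. The unnamed cells in clusters 7 and 13 were 1.92-fold and 2.60-fold lower.

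Among cells called G1 alone the 2 conditions went apart. The G1 median was 1.50-fold lower at E18.5 in the controls. In the ablated samples it was 1.32-fold higher, from 16 cells at E16.5, whose middle range ran from 3437.5 to 18457.25 UMIs. Between conditions of 1 stage the medians of all vascular endothelial cells were closer, with an ablated to control ratio of 0.945 at E16.5 and 1.11 at E18.5.

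The mitochondrial percent is the share of UMIs from mitochondrial genes and a common sign of damaged cells or of high energy use. Single vascular endothelial cells ranged from 0 to 19.8%, while the medians of the samples lay close together. The median was 1.56% and 1.46% in the E16.5 control and ablated samples and 1.52% and 1.67% in those of E18.5. More than 5% was seen in 6.70% and 6.82% of cells at E16.5 and in 1.72% and 3.16% at E18.5. Ventricular cardiomyocytes, which are rich in mitochondria, had medians between 7.88% and 11.7% in the same samples.

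Some of the deepest cells of the pool were in cluster 15. Of 46 named cells above the 99th percentile of UMI counts, 14 were vascular endothelial and 11 of these were in cluster 15. The authors called every cell single, but sample barcodes cannot show a pair of cells of the same sample. No doublet caller was run, and the part of such pairs was not tested. Leaving out the deepest 10% of vascular endothelial or named cells kept the direction of the S or G2M and cluster 15 differences, but the cluster 15 difference between conditions at E16.5 was then -2.32 points.

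Compared with endocardial cells, vascular endothelial cells had more S and G2M calls in 4 of 4 samples. The excess was 38.8 points (29.5 to 47.3) in the E16.5 control and 42.7 points (23.0 to 59.3) in the E16.5 ablated sample. At E18.5 it was 10.8 points (-9.16 to 29.3) in the control and 19.7 points (2.10 to 35.1) in the ablated sample. With both types limited to 5997 to 18810 UMIs per cell it was 40.7, 64.7, 25.7 and 10.9 points, above 0 in 4 of 4 samples, with intervals that held 0 at E18.5. The E16.5 excess was larger than the E18.5 excess by 28.0 points (7.23 to 49.7) in the controls and by 23.0 points (-1.95 to 47.2) in the ablated samples. In the UMI range these values were 15.01 points (-11.3 to 44.6) and 53.9 points (18.3 to 81.8). With 4 samples the sign was counted and not tested.

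G2M was called in 7.73% of control and 10.4% of ablated endocardial cells at E16.5, and in 6.67% and 10.2% at E18.5. The vascular excess in G2M was 26.2 points in the E16.5 control, 19.1 in the E16.5 ablated, 7.13 in the E18.5 control and 8.74 in the E18.5 ablated sample. The excess in S was 12.6, 23.6, 3.64 and 11.0 points in the same order. G2M thus made up most of the excess in the E16.5 control but not in the E16.5 ablated sample. For cluster 2 alone, the G2M share minus the endocardial share was -2.30, -3.78, -2.67 and -6.31 points in that order, with intervals of both signs. Cluster 15 held 101 of the 115 vascular endothelial cells called G2M, so leaving it out lowers the G2M share by construction. For S or G2M, the cluster 2 difference was 11.8, 25.8, 1.11 and 6.68 points, with intervals of both signs at E18.5. Every cell of cluster 15 was called S or G2M, so leaving these cells out lowers the share by construction. The endocardial share called S or G2M was 4.25 points (-9.84 to 20.7) and 3.59 points (-12.5 to 20.5) higher at E18.5, while the vascular share was lower at that stage. Endocardial median UMI counts were 9919 and 8711 in the E16.5 control and ablated samples and 7741 and 8245 in those of E18.5.

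Among all 8 cell types, vascular endothelial cells had the highest share called S or G2M in 3 of 4 samples and the second highest, after the 64.1% of mural cells, in the E16.5 control. By G2M calls alone, vascular endothelial cells ranked 1, 4, 5 and 3 of 8 in the E16.5 control, E16.5 ablated, E18.5 control and E18.5 ablated samples. By S calls alone they ranked 2, 1, 1 and 1 in the same order. Several neighbours in the combined order were within counting error. In the E16.5 ablated sample 60.7% of fibroblasts were called S or G2M (49.5 to 71.2), close to the 63.6% of vascular endothelial cells (47.8 to 77.6). In the E18.5 ablated sample fibroblasts, at 38.8% (32.9 to 45.0), lay inside the vascular endothelial interval of 34.0 to 54.8. The median S score of vascular endothelial cells was the highest of the 8 types in 4 of 4 samples, at 0.0224 and -0.0262 in the E16.5 control and ablated samples and -0.0631 and -0.0664 in those of E18.5. Their median G2M score, -0.0663 and -0.0738 in the E16.5 samples and -0.163 and -0.155 in those of E18.5, ranked 1, 2, 3 and 2 of 8.

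**Figure D4:**
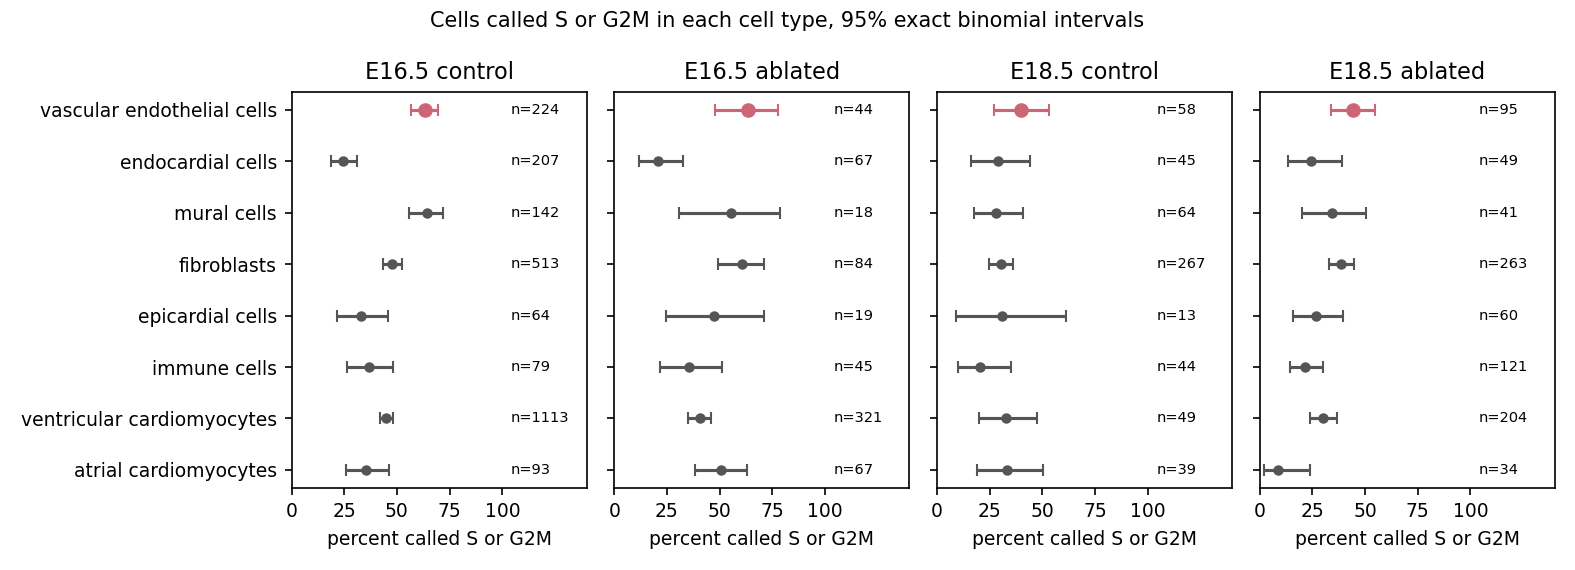
Percent of cells called S or G2M in each of 8 cell types, 1 panel per barcoded sample, with points for the measured share, bars for 95% exact binomial intervals and the number of cells at the right. Vascular endothelial cells (red) lie above endocardial cells in every panel, and the gap is wider at E16.5 (38.8 and 42.7 points) than at E18.5 (10.8 and 19.7 points).

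Mural cells are the neighbours of the endothelium on the vessel wall. They differed by -36.0 points in S or G2M calls between the control samples, more than vascular endothelial cells did. Between the ablated samples the vascular endothelial value of -19.4 points ranked 5 of 8 from the lowest. Atrial cardiomyocytes had the lowest value there, -41.9 points. In the controls 7 of 8 cell types had a lower value at E18.5, and in the ablated samples also 7 of 8, with endocardial cells the exception in both. The interval of the stage difference excluded 0 for vascular endothelial cells, mural cells and fibroblasts in the controls. In the ablated samples it did so for vascular endothelial cells, fibroblasts and both cardiomyocyte types. Fibroblasts differed by -17.4 points (-24.4 to -10.1) in the controls and by -21.9 points (-34.0 to -9.08) in the ablated samples.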

How the data were processed

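Only per-cell tables were used. Per the submitters' processing notes, the tool was Cell Ranger 7.1.0 and the build GRCm38 (mouse). Gene annotation, cell filters and clustering settings are not given in the sources used here. The deposited cluster columns bear the names of the tools Seurat and Harmony. The authors' deposited UMI counts and detected-gene counts are raw whole numbers per cell, the deposited mitochondrial percent has all UMIs of a cell as its base, and the deposited S score and G2M score are the authors' own. Cell type names came from the authors' integrated table, read here up to a row that breaks off, which covers pool 1 cells only; further rows were not analysed here. The total UMI count per barcoded sample ranged from 9225383 to 49416483.

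Shares were given with exact (Clopper-Pearson) intervals at 95%, and differences with limits combined by the square-and-add method (scipy 1.17.1, pandas 2.3.3). Medians were taken over cells. Every integrated or pool 1 cluster with at least 20 vascular endothelial cells was named, and every cell type served as comparator. Planned gene-level tests were not run, since gene counts were not used. Alternatives were other denominators, a log2 scale with 0.1 points added, means, cells trimmed by depth or mitochondrial percent, splits by depth or phase, and the clusters of pool 1. An alternative was read as moved when it left the interval of the main value. The cells and lists were chosen with earlier results of these data known.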

Additional observations from a re-analysis of the deposited data

Results flagged for a closer look

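In 7 measures of the vascular endothelial cells, the ablated minus control difference had opposite signs at E16.5 and E18.5. With 1 sample per stage and condition the sign of a single difference decided this, and the difference between stages was not tested. For the vascular share of endothelial cells the E18.5 difference exceeded the E16.5 difference by 22.0 points, with counting limits of 5.18 to 38.4. For the share of named cells it did so by 3.52 points, with limits of -0.654 to 7.42. For the cluster 15 share it did so by 15.7 points (-10.6 against 5.15), with limits of -6.14 to 34.9. The median UMI count gave 1426.5 (-762 against 664.5) and the median number of detected genes 68.5 (-17.5 against 51). The median mitochondrial percent gave 0.245 points (-0.0989 against 0.146), and the median G2M score 0.0163 (-0.00744 against 0.00884).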

How the results depend on the processing

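Of 160 alternative values for 36 results, 129 stayed within the interval of the main value or, on the log2 scale, kept its direction. Another 25 moved out of it and 6 reversed where that interval excluded 0. In all, 23 had the opposite sign. Some of the 129 could not differ. Counting cells with either score above 0 repeats the authors' rule for the calls, and a log2 ratio of the same shares keeps their direction. For the share of named cells, the E16.5 ablated minus control share was -8.49 points among cells neither fibroblast nor cardiomyocyte, and the E18.5 one was -2.86 among non-fibroblast cells. The control stage difference was 6.94 (non-fibroblast), -6.41 (non-cardiomyocyte) and -5.39 points (neither), and the ablated one 8.16 (non-fibroblast) and -0.781 (non-cardiomyocyte, reversed). For the cluster 15 share, unnamed cells of pool 1 gave 23.7 points for ablated minus control at E16.5 and -47.7 between ablated stages. For S or G2M calls, the stage difference below the median UMI count was -3.04 (control) and 6.58 (ablated, reversed). The intervals of both values held 0. At or above that median the stage difference was -42.1 (ablated), and in the UMI window it was -44.7 (ablated). At an equal cluster mix, which takes out part of it by construction, it was -4.37 (control). The ablated minus control difference was 20.6 (E16.5) and -13.0 (E18.5) in the window, and -24.3 (E18.5) at or above the median.

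Between stages, cells called G1 gave median UMI differences of -2937 (control) and 1674 (ablated, reversed), gene differences of -561 and 380.5 (ablated, reversed), a mitochondrial difference of -0.319 (control), an S score difference of 0.00500 (control, reversed) and a G2M score difference of -0.00660 (control). Their E16.5 ablated minus control mitochondrial difference was -0.316. Cluster 2 alone gave -4440.5 UMIs, -920.5 genes, -0.00630 for the S score and -0.00161 for the G2M score, all between controls. Means gave mitochondrial differences of -0.570 (control) and -0.0780 (ablated, reversed). Splits leave fewer cells, and no other cause was tested. The UMI window, the score margin of 0.05, the pool 1 clusters for cluster makeup, cluster 2 alone and 2 depth trims were added after seeing the data. No paired analysis was possible because each stage and condition had 1 barcoded sample with named cells; samples could not be left out in turn for the same reason.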
